A study of Mus musculus with 4 samples.

Results

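Krt6a, Krt6b, Krt16, S100a8, S100a9, Gjb2 and Sbsn are genes known from skin keratinocytes, most of them as genes that switch on when the epidermis is wounded. They were chosen by symbol, as the probe sets of the array that the platform annotation gives to exactly 1 of these names. All 7 genes were found, with 11 probe sets in all, among 17097 genes and 45141 probe sets on the array. Where a gene had several probe sets, the one with the highest mean over the 4 arrays stood for the gene.

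The cells were mouse mammary gland cells, sorted 3 days after transplantation, and RNA of 50 sorted cells was measured on each microarray. In the group called BC alone, 10000 BC cells had been transplanted without other cells, which the labels name the multipotent condition. In the control, named unipotent, 2000 BC cells had been transplanted together with 8000 LC cells. The labels leave BC and LC unexplained, and mammary biologists commonly use these letters for basal and luminal cells. The labels name no genotype, allele, strain, age or recipient, and both groups were transplanted and sorted in the same way as far as the labels say. Each group had 2 arrays. No label ties an array to an animal, so a p-value here reflects array-to-array spread that may be technical, and the small number of arrays limits the precision. The presence of LC cells and the lower BC cell number cannot be told apart. The sorting gate is not stated, nor is the share of LC cells in the sorted control cells.

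At a wound edge, keratinocytes leave their resting programme and migrate over the bed of the wound. They then make the type II keratins Krt6a and Krt6b and their type I partner Krt16, which replace part of the resting keratin network, and raise the alarmins S100a8 and S100a9. These small calcium-binding proteins pair to form calprotectin, which binds metals needed by microbes and calls in leukocytes. Neutrophils and monocytes store the same pair in large amounts, so its RNA does not identify a keratinocyte. Gjb2 encodes connexin 26, a gap junction channel that is scarce in resting interfollicular epidermis and abundant in wounded and hyperproliferative epidermis, and that mammary epithelium also makes. Sbsn encodes suprabasin, a secreted protein of the differentiating suprabasal layers, and is a gene of differentiation more than of wounding.

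Of the 7 genes, 6 had a lower mean in BC alone than in the control, namely Krt6a, Krt6b, Krt16, S100a8, S100a9 and Gjb2, and Sbsn had a higher one. None passed the test across all genes (limma, adjusted p = 0.842 for each of the 7). By size, Krt6b, S100a8, S100a9 and Gjb2 were at least 1 log2 lower in BC alone with no overlap between the groups, that is 4 of 7, where 0.895% of all genes were and 19.6% did not overlap in that direction. Sbsn was at least 1 log2 higher without overlap, as 4.79% of all genes were. The genes were chosen with these results known, so the counts describe them and are no test. Control replicate 1 stood farthest out for most of them. It had the highest value of the 4 arrays for 6 of the 7, where it was highest for 19.3% of all genes, and it had the lowest value for Sbsn.

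**Figure D1:**
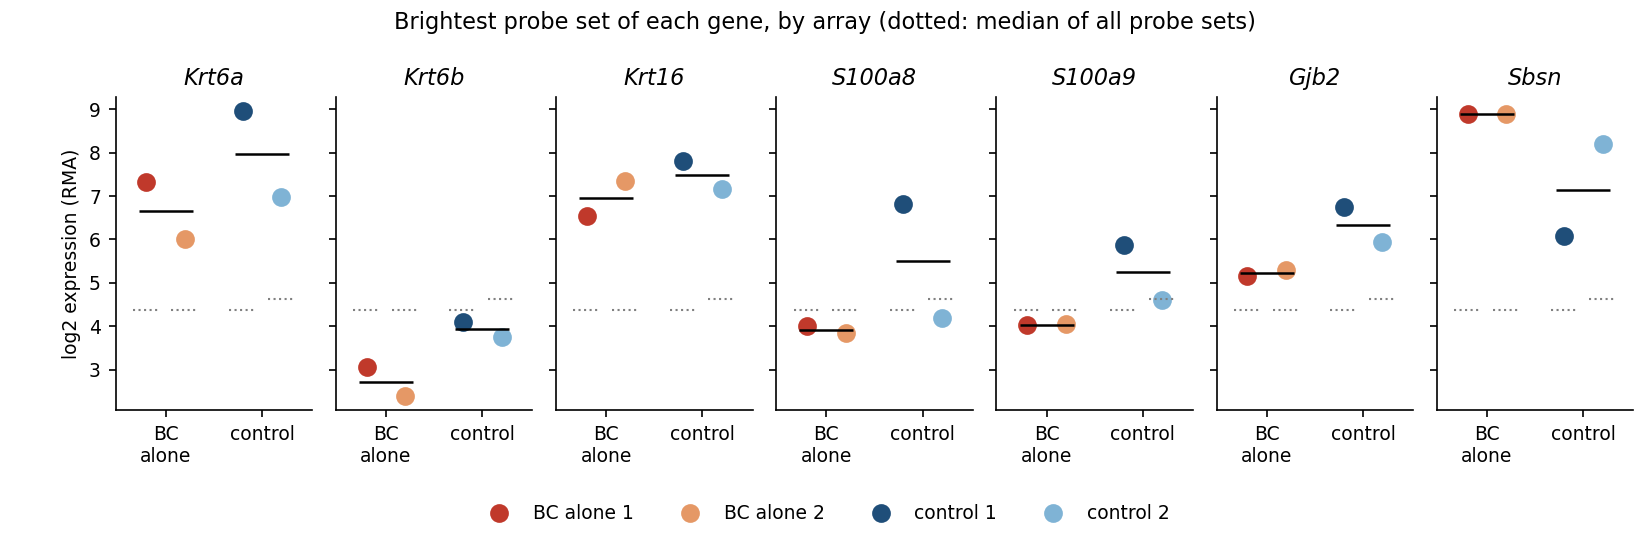
Log2 expression of the brightest probe set of each gene on the 2 BC alone arrays and the 2 control arrays, with group means as black lines and the median of all probe sets on that array as a dotted line. Control replicate 1 is the top point in 6 panels and the bottom point for Sbsn, at 6.09, and the groups overlap for Krt6a and Krt16.

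S100a8 and S100a9 lie next to each other on chromosome 3, with 0 protein-coding genes between them in RefSeq, and both were lower in BC alone. Sbsn went the other way. Their promoters are shown for these reasons, as windows that run from 250 bases before the annotated start to 50 bases after it. Windows from RefSeq, build GRCm38.p6, were matched for 4 of the 7 genes, S100a8, S100a9, Gjb2 and Sbsn. Each sequence is written 5′ to 3′ on the strand of the gene, and capitals mark the letters of a searched motif. The S100a8 window is chr3:90668821-90669120 on the plus strand, the S100a9 window chr3:90695672-90695971 on the minus strand and the Sbsn window chr7:30751221-30751520 on the plus strand. The start used for the Sbsn window lies inside the gene's full RefSeq span, chr7:30732674-30756134, and not at the first base of that span.
S100a8: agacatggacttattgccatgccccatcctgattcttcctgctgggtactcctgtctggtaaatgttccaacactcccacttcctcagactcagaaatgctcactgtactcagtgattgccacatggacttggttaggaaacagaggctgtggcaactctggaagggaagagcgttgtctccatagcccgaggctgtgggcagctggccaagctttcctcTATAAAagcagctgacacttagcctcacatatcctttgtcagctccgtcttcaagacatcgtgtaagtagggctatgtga
S100a9: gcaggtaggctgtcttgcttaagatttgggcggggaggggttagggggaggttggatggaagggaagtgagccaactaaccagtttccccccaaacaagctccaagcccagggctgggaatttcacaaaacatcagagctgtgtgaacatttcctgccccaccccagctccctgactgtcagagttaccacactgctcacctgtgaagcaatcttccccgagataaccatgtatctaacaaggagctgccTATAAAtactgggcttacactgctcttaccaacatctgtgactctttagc
Sbsn: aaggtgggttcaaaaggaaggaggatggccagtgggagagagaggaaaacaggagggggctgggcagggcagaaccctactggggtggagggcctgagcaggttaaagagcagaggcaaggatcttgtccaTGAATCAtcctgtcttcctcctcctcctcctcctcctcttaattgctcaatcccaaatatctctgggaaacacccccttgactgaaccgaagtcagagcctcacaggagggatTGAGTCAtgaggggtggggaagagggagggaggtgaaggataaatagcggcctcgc

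The motifs searched on both strands were 3, the TATA box as TATAAA, the AP-1 site as TGANTCA and the STAT site as TTCNNNGAA, with N for any base. The TATA box letters were found in the S100a8 window, where the first base is at -30 from the annotated start, and in the S100a9 window, where they begin at base 1 of the annotated transcript. Of all 32851 promoter windows, 13.6% held TATAAA. The Sbsn window held the AP-1 letters at 2 places, as TGAATCA from -119 and as TGAGTCA from -6 of the start that its window uses, and 7.81% of all windows held such letters. The STAT letters, found in 8.3% of all windows, were in none of the 4 windows, and the Gjb2 window held none of the 3 motifs. No match overlapped another, and these matches are descriptions of the letters and do not show a bound site.

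The values are log2 expression from RMA, a method that corrects background, normalises arrays and sums up the probes of a set, with no detection call. Control replicate 2 stood apart from the other arrays. Its values had an SD of 1.44 over all probe sets, against 1.90 to 1.92 on the others, and its Pearson correlation with them over probe sets was 0.915 to 0.919, against 0.968 to 0.972 among the others. The epithelial genes Krt5, Krt14, Trp63, Acta2, Krt8, Krt18 and Epcam, which check the mammary tissue, had 8.74 to 10.76 on the BC alone arrays and control replicate 1, and 5.20 to 8.0 on control replicate 2. Cdh1, E-cadherin, was at 6.35 to 7.02 on all 4. Of the markers of stratified epidermis, Krt1, Krt2, Flg and Lor were at or below 4.27 on every array, under the array medians of 4.37 to 4.62, and Krt10 and Krt15 were at 4.67 to 6.11. The name wound-activated keratinocyte genes is therefore used only for the gene list, not for the cells. Each difference is also given against each control array. Because these are bulk samples, fewer cells of a type and less RNA per cell cannot be told apart.

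Among the keratins, Krt6a had log2 values of 7.32 and 6.0 on the BC alone arrays, against 8.95 and 6.97 on the control arrays. Control replicate 1 was the highest array and BC alone replicate 2 the lowest, and the groups overlapped, since BC alone replicate 1 lay above control replicate 2. The group means were 6.66 ± 0.93 for BC alone and 7.96 ± 1.40 for the control (SD, n = 2), a log2 difference of -1.30 ± 0.77 (SE). Against control replicate 1 alone the difference was -2.29, and against control replicate 2 alone it was -0.31. Without BC alone replicate 1 it was -1.96, and without BC alone replicate 2 it was -0.64.

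The other probe sets of Krt6a did not show this difference. The probe set 1422783_PM_a_at had 6.17 and 7.21 in BC alone, compared with 6.69 and 6.26 in the control, a log2 difference of 0.215 ± 0.43 (SE, limma over all probe sets). The probe set 1427700_PM_x_at had 6.08 and 6.99 on the BC alone arrays, against 6.20 and 5.9 on the control arrays, a log2 difference of 0.485 ± 0.39 (SE). Both were highest on BC alone replicate 2, where the brightest probe set, 1422784_PM_at, was lowest. The suffix x marks probes that can bind other sequences, and Krt6a and Krt6b are close paralogs that lie side by side on chromosome 15. With the mean of the 3 probe sets Krt6a differed by -0.20, so the size of its difference depends on the probe set, and which of them reads the Krt6a transcript best was not tested.

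**Figure D2:**
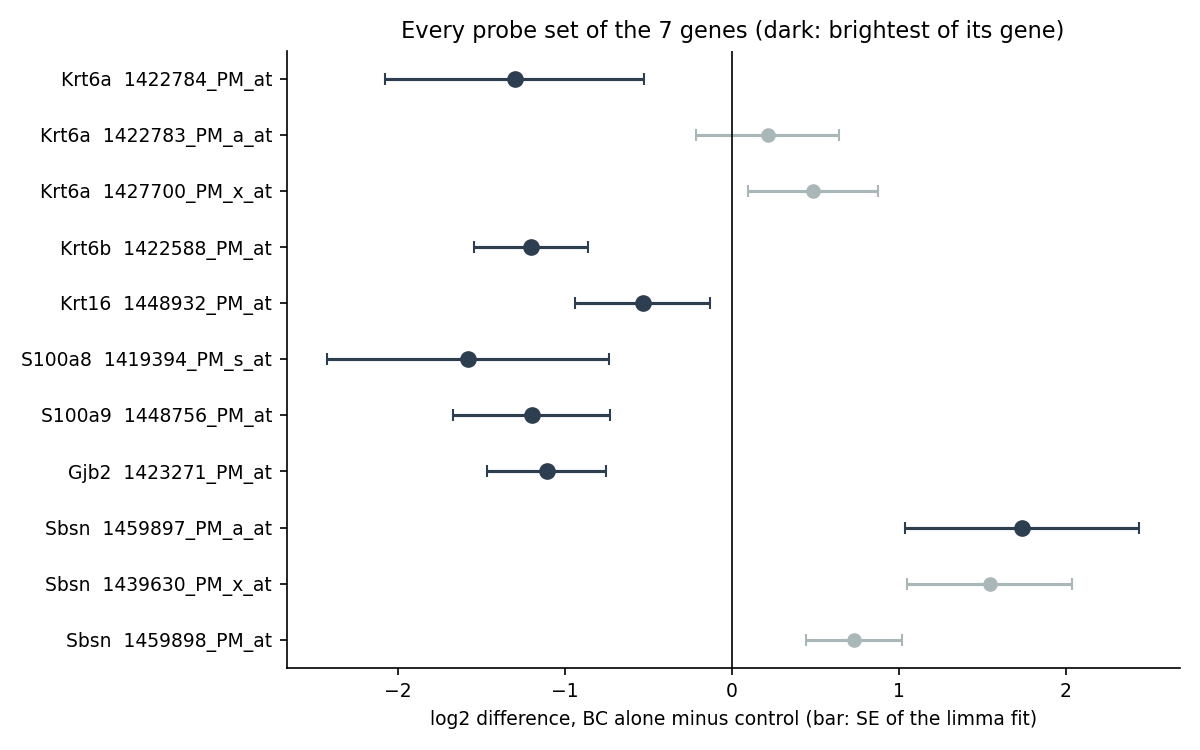
Log2 difference, BC alone minus control, for each of the 11 probe sets, with bars for the SE of the limma fit over all probe sets. The 3 Krt6a probe sets fall on both sides of 0, from -1.30 to 0.485, while the 3 Sbsn probe sets are all above 0.

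Krt6b, the close paralog of Krt6a, had 3.06 and 2.39 in BC alone, compared with 4.10 and 3.76 in the control. Both BC alone arrays were below both control arrays. The difference was -1.205 ± 0.37 (SE), or 2.31-fold, with an unadjusted p of 0.0195 in the limma fit. It was -1.375 against control replicate 1 and -1.035 against control replicate 2, so Krt6b was the only one of the 7 genes at least 1 log2 apart from each control array taken alone. That depended on the low value of BC alone replicate 2. The difference was -0.87 without that array, under 1 log2, and -1.54 without BC alone replicate 1. The gene was dim on every array, at the 12.9th and 0.0th percentile of all probe sets in BC alone and the 43.9th and 25.5th percentile in the control. Its level was not tested against background. With an intensity trend in the variance model Krt6b passed (limma, adjusted p = 0.000473), as 97 of 17097 genes did. That setting has 826 prior degrees of freedom, so a gene's own spread over the arrays has little weight in it.

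Krt16, the type I partner, had 6.55 and 7.35 on the BC alone arrays, against 7.81 and 7.16 on the control arrays. The groups overlapped, since BC alone replicate 2 lay above control replicate 2. The group means were 6.95 ± 0.57 for BC alone and 7.485 ± 0.46 for the control (SD, n = 2), a difference of -0.535 ± 0.43 (SE). It was -0.86 against control replicate 1 alone and -0.21 against control replicate 2 alone, and -0.135 without BC alone replicate 1.

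S100a8 had 4.01 and 3.84 in BC alone, compared with 6.81 and 4.20 in the control. Only control replicate 1 was high. Both BC alone arrays lay below both control arrays, but the gap to control replicate 2 was small. The group means were 3.925 ± 0.12 for BC alone and 5.505 ± 1.85 for the control (SD, n = 2), a difference of -1.58 ± 0.84 (SE), or 2.99-fold. Against control replicate 1 alone it was -2.885, where only 4 of the 17097 genes were more negative. Against control replicate 2 alone it was -0.275, where 6160 genes were more negative. Its only probe set carries the suffix s, which marks probes shared by several transcripts. With an intensity trend S100a8 passed (limma, adjusted p = 0.0371), as 97 of 17097 genes did. That setting has 826 prior degrees of freedom, so the gene's own spread has little weight. The SE of S100a8 was 0.418 under it, against 0.84 in the main fit, although its control arrays differed by 2.61 log2.

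S100a9, which pairs with S100a8 in calprotectin, had 4.03 and 4.05 on the BC alone arrays, against 5.88 and 4.60 on the control arrays. The order of the arrays resembled that of S100a8, with control replicate 1 on top and no overlap between the groups. The difference was -1.20 ± 0.48 (SE), or 2.30-fold, and it was -1.84 against control replicate 1 and -0.56 against control replicate 2. S100a8 and S100a9 exceeded the median of all probe sets on control replicate 1 alone, at the 82.7th and 73.2nd percentile. On the BC alone arrays they were at the 37.7th to 43.0th percentile, and on control replicate 2 at the 38.7th and 49.6th.

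Gjb2 had 5.17 and 5.29 in BC alone, compared with 6.74 and 5.94 in the control. Both BC alone arrays were below both control arrays, and control replicate 1 was highest. The group means were 5.23 ± 0.08 for BC alone and 6.34 ± 0.57 for the control (SD, n = 2), a difference of -1.11 ± 0.38 (SE), or 2.16-fold, with an unadjusted p of 0.0295 in limma. It was -1.51 against control replicate 1 alone and -0.71 against control replicate 2 alone. Unlike the S100 pair it lay above the median of all probe sets on every array, at the 63.6th percentile or higher.

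Sbsn had 8.90 and 8.88 on the BC alone arrays, against 6.09 and 8.21 on the control arrays. The BC alone arrays agreed closely and lay above both controls, of which control replicate 1 was far lower. The group means were 8.89 ± 0.01 for BC alone and 7.15 ± 1.50 for the control (SD, n = 2), a difference of 1.74 ± 0.70 (SE), or 3.34-fold. Against control replicate 1 alone it was 2.80, with 7 genes of 17097 more positive, and against control replicate 2 alone it was 0.68. Its other probe sets were ordered in the same way, with differences of 1.545 and 0.73, and groups did not overlap in any of the 3. The probe set at 1.545 carries the suffix x. The one at 0.73 had values of only 3.81 to 4.78 and was designed from the same source sequence as the brightest, so the 3 are not independent readings.

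**Figure D3:**
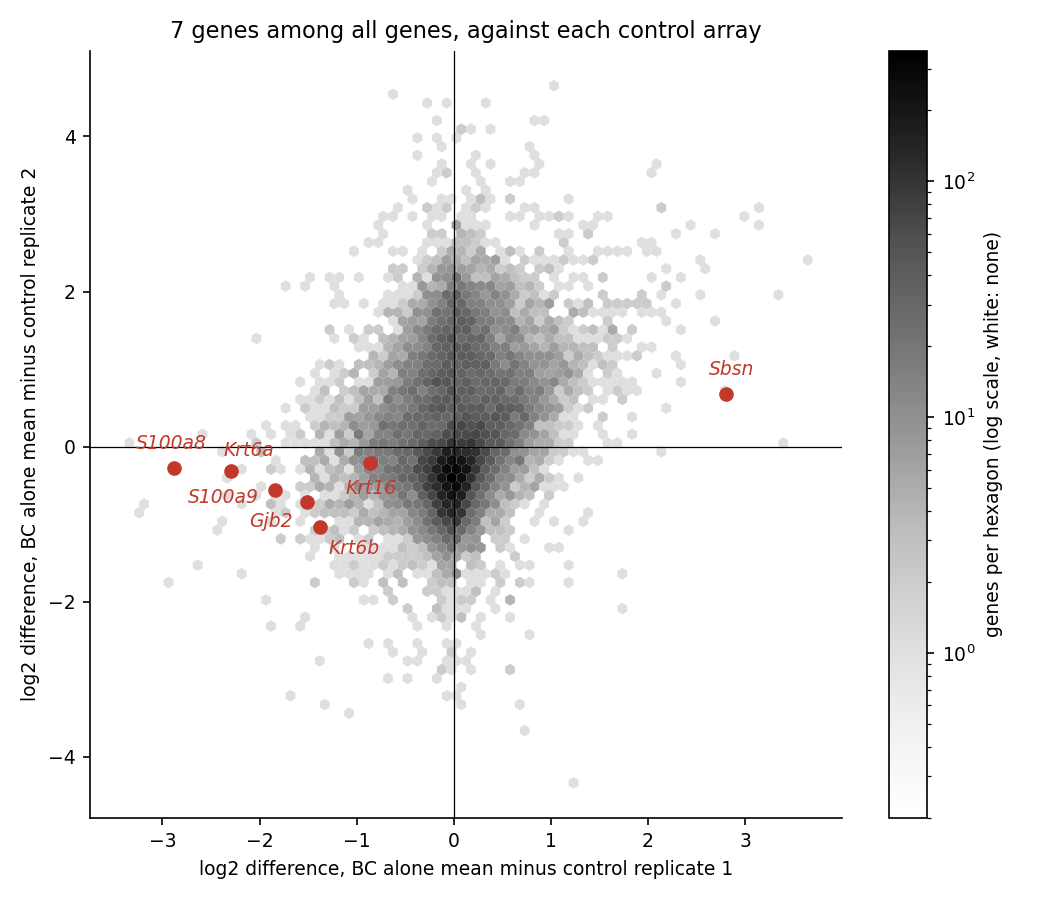
Log2 difference of the BC alone mean minus control replicate 1 (x axis) and minus control replicate 2 (y axis) for all 17097 genes as shaded hexagons and for the 7 genes as red points. The x range of the 7 genes runs from -2.885 for S100a8 to 2.80 for Sbsn and their y range from -1.035 for Krt6b to 0.68 for Sbsn. Both axes share the BC alone arrays.

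By the brightest probe sets, the direction of the mean was the same against each control array for all 7 genes, while the size was not. For genes whose groups do not overlap, the shared direction follows from that. The other Krt6a probe sets were not lower against either control array, and differed by 0.43 and 0.635 against control replicate 2 alone. At least 1 log2 without overlap, 5 genes were lower in BC alone against control replicate 1 alone, Krt6a, Krt6b, S100a8, S100a9 and Gjb2, where 2.09% of all genes were. Against control replicate 2 alone only Krt6b was, where 4.23% of all genes were. Of all 17097 genes, 0 had an adjusted p under 0.05 in limma and 680, or 3.98%, had an unadjusted p under 0.05, among them Krt6b and Gjb2. With 2 arrays in each group the smallest p of an exact permutation test is 0.333. Of the 972 genes at least 1 log2 apart without overlap, 84.3% were higher in BC alone, whereas quantile normalization of the deposited values gave 54.4% of 614, cyclic loess 56.5% of 533 and median centring 92% of 1243. Under the quantile normalization and cyclic loess, 5 genes of the list were lower at that size, Krt6a, Krt6b, Krt16, S100a9 and Gjb2, and 0 were higher. Of all genes 1.64% were lower at that size after the quantile normalization and 1.36% after cyclic loess. Sbsn was not counted, since it differed by 0.89 after the quantile normalization and by 1.11 with overlapping groups after cyclic loess. After median centring Krt6b and S100a9 were lower at that size, as 0.585% of all genes were, and Sbsn was higher. The S100a8 groups overlapped under all 3 scalings. All 6 genes lower on average stayed lower and Sbsn stayed higher under these 3 scalings.

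The genes also differed in how alike their profiles were over the 4 arrays, measured as the root mean square difference in log2 after each gene's own mean was taken off. S100a9 and Gjb2 were the closest pair, at 0.18, and Gjb2 ranked 15th among 17096 other genes by likeness to S100a9. S100a9 ranked 22nd by likeness to S100a8, at 0.51. Krt6a and Krt16, whose products pair in filaments, were 0.96 apart, and Krt16 ranked 2216th by likeness to Krt6a. Sbsn was 1.53 to 2.36 from each of the others. These are descriptions over 4 arrays, with no test.

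Genes outside the list came closer to single members. The 3 nearest to S100a9 were Ovol1, Cpxm2 and Snorc, at 0.06 to 0.10. Ovol1, a transcription factor of epidermal differentiation, had 5.82 and 5.81 in BC alone, compared with 7.80 and 6.37 in the control. Nearest to S100a8 were Niban1, Clic6 and Bex1, at 0.21 to 0.26, and only 18 genes lay within 0.5 of it. Nearest to Krt6a were Zcchc3, Spint1 and Igkj1, at 0.16 to 0.31, with 31 genes within 0.5. Spint1, a membrane inhibitor of serine proteases, had 7.21 and 6.09 on the BC alone arrays, against 8.40 and 6.94 on the control arrays.

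Nearest to Sbsn were Thbd, which encodes thrombomodulin, Stap2 and Hmga2, a chromatin protein of growing cells, at 0.32 to 0.37, with 9 genes within 0.5. Thbd had 6.34 and 6.86 in BC alone, compared with 4.29 and 5.72 in the control. For Gjb2 they were Arhgap27, Porcn and Cpeb1 at 0.07 to 0.09, with 1400 genes within 0.5. For Krt6b they were Ccrl2, Arhgap9 and Mapk12 at 0.06 to 0.10, with 936. For Krt16, whose values ran from 6.55 to 7.81, they were Prex1, Pym1 and Ncam1 at 0.02 to 0.04. As many as 5808 genes lay within 0.5 of Krt16, so likeness to it at that distance says little.

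Leukocytes are another source of S100a8 and S100a9, and their markers had the same direction in part. Of 16 measured neutrophil markers, 15 had a lower mean in BC alone and 7 were below both controls on both arrays. Over all genes 53% had a lower mean, 47% a higher one, 19.6% were below both controls and 16.8% above both. The list median was 3.40 and 3.57 on the BC alone arrays, against 4.11 and 3.99 on the control arrays, below the array medians throughout. Its median difference was -0.30, against -0.04 over all genes and 0.375 over the 8547 genes with a mean above the median of all genes. Dimmer genes thus tended lower in BC alone than brighter ones, and the list was not compared with genes equally dim. Against control replicate 1 alone the list median was -0.03, with 9 lower and 7 higher. Over all genes the median against that array was 0.005, with 8341 lower and 8756 higher. Against control replicate 2 alone the list median was -0.35, and that of all genes was -0.055.

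Csf3r, the receptor for the cytokine that drives neutrophil production, had 3.24 and 3.23 in BC alone, compared with 4.09 and 3.66 in the control. Fpr2, a receptor for bacterial peptides, had 3.15 and 3.56 on the BC alone arrays, against 4.55 and 4.17 on the control arrays. Csf3r was under the array median on every array, and Fpr2 was over it only on control replicate 1. Control replicate 1 was the highest array for 7 of the 16 neutrophil markers, Mmp9, Fpr2, Trem1, Clec4d, Csf3r, Clec4e and Il1r2, where it was for 19.3% of all genes. Control replicate 2 was the highest array for 7 as well, where it was for 40.4% of all genes. Against control replicate 1 alone Clec4d differed by -1.41 and Fpr2 by -1.195. Among the granule genes Mpo, Elane, Prtn3, Camp, Ngp and Mmp8, control replicate 1 was the highest array for none, and they differed by -0.25 to 0.015. Elane, Camp, Ngp and Mmp8 were under the array median on every array. Prtn3 was over the array median on every array but control replicate 2, and differed by 0.015. Detection was not tested for any neutrophil marker, so the small differences of the dim granule genes say little. The same limit holds for the differences of Csf3r and Clec4e, which were under the array median on every array. Mmp9, Trem1 and Clec4d differed by -0.945, -0.785 and -0.875. Of the neutrophil markers 0 passed an adjusted p of 0.05 in limma and 3 had an unadjusted p under 0.05.

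**Figure D4:**
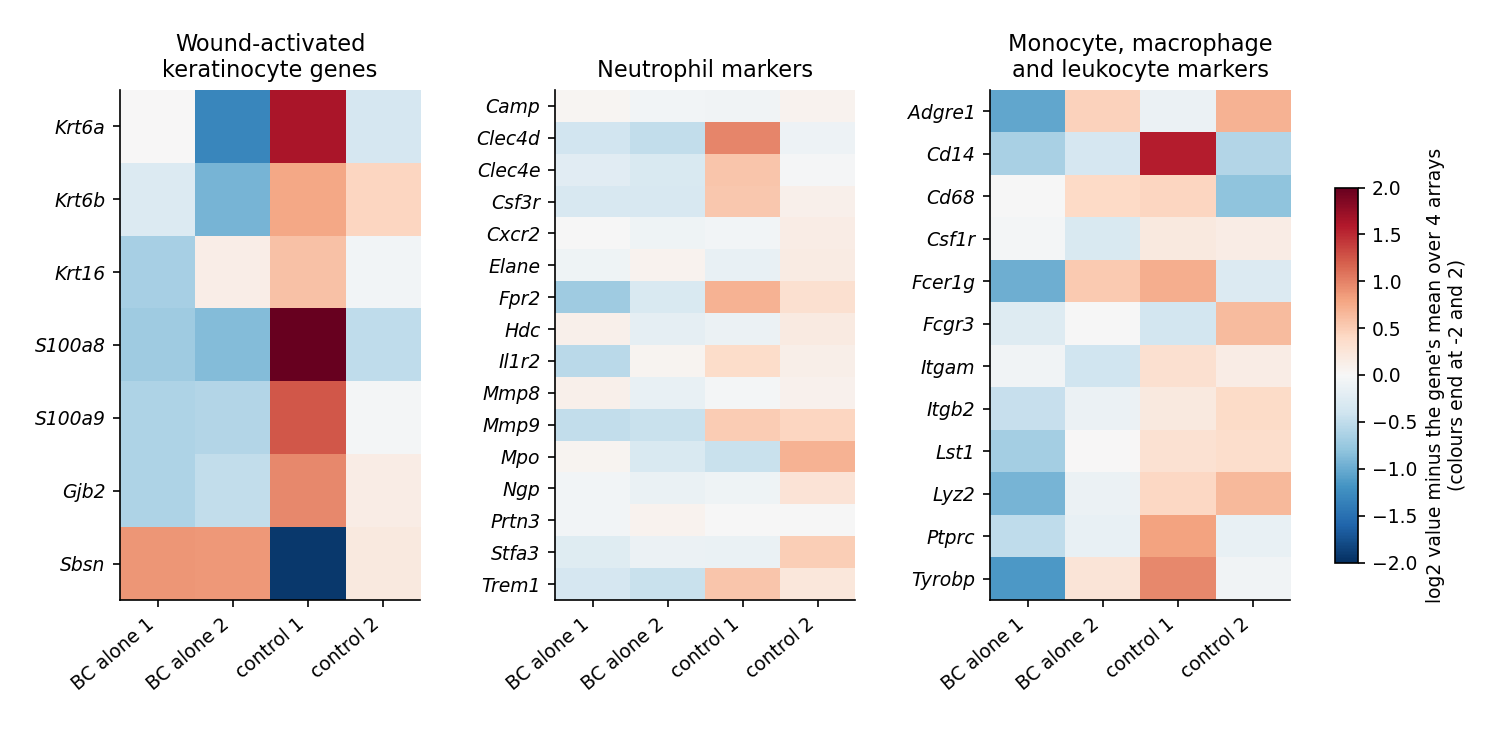
Log2 value minus the mean of that gene over the 4 arrays, for the 7 genes, 16 neutrophil markers and 12 monocyte, macrophage and general leukocyte markers, with red above and blue below the mean. Control replicate 1 is the reddest column for 6 of the 7 genes and for Clec4d, Csf3r, Cd14 and Ptprc, while Mpo and Elane are not raised there.

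Of the 12 monocyte, macrophage and general leukocyte markers, 11 had a lower mean in BC alone, and 5 were below both controls on both arrays. Over all genes 53% had a lower mean and 19.6% were below both controls. The median of the 12 was 5.305 and 6.105 in BC alone, compared with 6.41 and 6.045 in the control. Their median difference was -0.58, against -0.04 over all genes. It was -0.59 against control replicate 1 alone and -0.38 against control replicate 2 alone, where all genes had 0.005 and -0.055. Control replicate 1 was the highest array for 7 of the 12 and control replicate 2 for 5, where they were for 19.3% and 40.4% of all genes. Cd14, a coreceptor for bacterial lipopolysaccharide, had 6.35 and 6.66 on the BC alone arrays, against 8.56 and 6.40 on the control arrays, high on the same array as S100a8. Other markers differed from it. Adgre1 and Lyz2 were highest on control replicate 2, Fcgr3 was lowest on control replicate 1, and Cd68 was higher in BC alone by 0.385. Ptprc, the surface phosphatase CD45 of all leukocytes, had 2.91 and 3.27 in BC alone, compared with 4.21 and 3.26 in the control. It was below the array median on all 4 arrays. Lyz2, lysozyme of myeloid cells, had 6.12 and 6.93 on the BC alone arrays, against 7.46 and 7.70 on the control arrays. The part of leukocytes in the S100a8 and S100a9 values was not tested.

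Other S100 genes did not share the pattern of the pair. Of 12 other S100 genes, 7 had a higher mean in BC alone and 5 were above both controls, where 47% and 16.8% of all genes were. Their median difference was 0.68, and 0.165 against control replicate 1 alone. Over genes with a mean above the median of all genes it was 0.375, and the 5 were such brighter genes, unlike S100a8 and S100a9. S100a6, a calcium-binding protein of growing cells, had 9.50 and 9.33 in BC alone, compared with 8.72 and 6.89 in the control. S100a10 and S100a11 differed by 0.875 and 0.815, but by 0.18 and 0.045 against control replicate 1 alone. Control replicate 1 was the highest array for 0 of these 12 genes, where it was for 19.3% of all genes. Among 7 receptors and adaptors of calprotectin, 5 had a higher mean in BC alone, where 47% of all genes had. The list's median difference was 0.245. Against control replicate 1 alone that median was 0.005. Control replicate 1 was the highest array for 2 of them, Cd14 and the scavenger receptor Cd36, which had 5.01 and 5.16 in BC alone, compared with 5.43 and 3.88 in the control. Tlr4, the innate receptor that calprotectin engages, had 4.47 and 4.99 on the BC alone arrays, against 4.31 and 4.94 on the control arrays.

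The other keratins of stratified epithelia had a lower mean in BC alone for 9 of 14 genes, not far from the 53% of all genes. Their median difference was -0.235, and -0.055 against control replicate 1 alone. For 10 of these 14 the highest array was control replicate 2, which was highest for 40.4% of all genes, and for 3 it was control replicate 1. Krt4, a keratin of mucosal lining, had 4.81 and 5.02 in BC alone, compared with 4.97 and 8.08 in the control, high on control replicate 2 only. Krt5, the type II keratin of resting basal cells, had 10.47 and 10.22 on the BC alone arrays, against 10.76 and 7.12 on the control arrays. Its partner Krt14 had 10.23 and 9.80 in BC alone, compared with 10.49 and 6.78 in the control. Krt10, a suprabasal keratin, had 5.15 and 6.11 on the BC alone arrays, against 5.26 and 4.67 on the control arrays. Of the 13 other connexins, 8 had a lower mean in BC alone, also not far from the 53% of all genes. The list's median difference was -0.165, but 0.04 against control replicate 1 alone. Gja1, connexin 43, had 10.82 and 10.52 in BC alone, compared with 10.33 and 8.37 in the control, opposite in direction to Gjb2.

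Sbsn, Dmkn and Krtdap lie in a row on chromosome 7, with 0 protein-coding genes between neighbours in RefSeq, and encode secreted proteins of stratified epithelium. Dmkn, dermokine, had 9.14 and 9.28 on the BC alone arrays, against 7.22 and 6.72 on the control arrays, a difference of 2.24 ± 0.33 (SE) and of 1.99 against control replicate 1 alone. Krtdap was dim, with 3.78 and 4.11 in BC alone, compared with 3.45 and 4.14 in the control. Dmkn therefore shared the direction of Sbsn on both controls, and Krtdap did not on control replicate 2. Of 35 measured genes of the cornified envelope and late differentiation, 30 had a lower mean in BC alone all the same. Over all genes 53% had. The median difference of the list was -0.205, and -0.01 against control replicate 1 alone. The list was mostly dim, with medians of 3.78 to 4.16 on the 4 arrays, and dimmer genes tended lower in general. Against control replicate 1 alone 19 of the 35 were lower and 16 higher, where 8341 of all genes were lower and 8756 higher. For 26 of the 35 the highest array was control replicate 2, against 40.4% of all genes. Klk10, a kallikrein protease, had 5.34 and 4.93 on the BC alone arrays, against 6.83 and 8.35 on the control arrays, and Sprr1a and Sprr2a1, small proline-rich envelope proteins, had 8.66 and 8.85 on control replicate 2, against 5.80 to 6.59 on the other arrays.

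Genes that induce or regulate the wound keratins were divided. Of 20 measured, 12 had a higher mean in BC alone and 8 a lower one, where 47% and 53% of all genes had. The list's median difference was 0.32. Against control replicate 1 alone 12 were lower and 8 higher, with a median of -0.06, where 8341 of all genes were lower and 8756 higher. Il1b, the cytokine interleukin-1 beta, had 4.83 and 5.14 in BC alone, compared with 6.45 and 6.72 in the control. Egfr, the receptor through which growth factors induce Krt6 and Krt16 in skin, had 8.45 and 9.0 on the BC alone arrays, against 7.99 and 7.01 on the control arrays. Socs3, a feedback inhibitor of cytokine signalling, had 8.24 and 7.69 in BC alone, compared with 6.92 and 5.19 in the control. Cebpb and Stat3, transcription factors of the wound response, differed by -0.065 each against control replicate 1 alone.

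Genes of migration and of barrier defence were mixed in direction over both controls. Of 14 genes of re-epithelialization, 8 had a higher mean in BC alone, where 47% of all genes had. The list's median difference was 0.20. Against control replicate 1 alone 12 of the 14 were lower and 2 higher, with a median of -0.20. Of all genes 8341 were lower and 8756 higher against that array, with a median of 0.005. Ptgs2, cyclooxygenase-2, had 7.06 and 6.72 on the BC alone arrays, against 5.46 and 4.08 on the control arrays, and Plau, urokinase, differed by 1.53. Itgb6, an integrin chain of wound-edge keratinocytes, had 5.09 and 4.74 in BC alone, compared with 5.77 and 5.93 in the control, the direction of Krt6b. Of 16 antimicrobial and barrier genes, 8 had a higher and 8 a lower mean, with a median difference of 0.015. Those with the smallest p went both ways. Saa3, an acute-phase serum amyloid protein, and Wfdc12, a whey acidic protein family member, were above both controls and differed by 1.57 and 0.755. Pglyrp1, a peptidoglycan recognition protein that neutrophil granules also hold, had 4.42 and 4.96 in BC alone, compared with 5.28 and 7.36 in the control. Ltf, the iron-binding protein lactoferrin, had 7.32 and 7.47 on the BC alone arrays, against 7.86 and 9.56 on the control arrays. Pglyrp1 and Ltf thus lay below both controls, as S100a8 did, but were highest on control replicate 2. Lcn2, the iron-binding protein lipocalin-2 that accompanies calprotectin in inflamed epithelium, had 11.15 and 11.07 in BC alone, compared with 11.09 and 8.22 in the control, and differed by 0.02 from control replicate 1. In none of these lists did a gene pass an adjusted p of 0.05 in limma.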

How the data were processed

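RNA from mammary cells was hybridised to Affymetrix mouse arrays, 4 in all. The authors deposited log2 values, 1 for each probe set and array. RMA and affy are named in the submitters' processing notes, without versions. Whether the arrays were normalised together is not stated there.

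Names came from GEO's annotation of the platform, which can be old. Of 45141, it gives 28898 1 symbol, 551 several and 15692 none. By Entrez identifier 28689 were found in RefSeq, and 0 symbols changed. No probe set that names several genes held one of the 7. The brightest probe set stood for a gene, without a filter on dim ones.

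BC alone was compared with the control in limma 3.58.1 under R 4.3.3 (lmFit, eBayes, two-sided, Benjamini-Hochberg over 17097 genes, threshold 0.05), checked on simulated data. The fit had 2 residual and 3.50 prior degrees of freedom. Folds are log2 differences turned to a linear ratio. Alternatives were 3 scalings, a variance trend, robust variance, the mean of probe sets, a filter on dim genes, the replicate number as a block and leaving out each array.

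The 7 genes, the 11 other gene lists and the tests were chosen with earlier results of these data known. Named genes are the 7, the 3 nearest in profile to each, up to 4 per list with the smallest p and a few marker genes. S100a11, Tlr4, Krtdap, Sprr1a, Sprr2a1, Lcn2, Cebpb, Stat3 and the neutrophil and leukocyte markers beyond these were picked with their values in view. The arrays' numbers share no stated animal or day.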

Additional observations from a re-analysis of the deposited data

How the results depend on the processing

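Of 81 values of the 7 genes under the alternatives, 0 changed direction and 79 stayed on the same side of an adjusted p of 0.05 in limma. The exceptions were Krt6b at -1.205 and S100a8 at -1.58, which passed with an intensity trend in the variance model, a setting with 826 prior degrees of freedom. Many of these values could not change direction. The variance trend, robust variance, the block and the filter on dim genes leave the difference itself as it is. The mean of probe sets does so for genes with a single probe set. Leaving out 1 array cannot reverse a gene whose groups do not overlap. The count of directions is therefore no measure of robustness. Over all alternatives Krt6a ran from -2.29 to -0.20, Krt16 from -1.03 to -0.135 and Sbsn from 0.68 to 2.80. The cause was not tested. Krt6b, S100a8 and S100a9 gave no value under the filter on dim genes, since their means lay below the median of all genes. Genes past the threshold numbered 0 in the main analysis, 97 with the intensity trend and 108 with the replicate block, which leaves 1 residual degree of freedom and an infinite prior estimate. With the block 0 of the 7 genes passed. Deviations of same-numbered arrays correlated at -0.018 over genes, so the numbers are not shown to pair the arrays. Genes at least 1 log2 apart without overlap numbered 972 in the main analysis, 614 after quantile normalization, 533 after cyclic loess and 620 with the mean of probe sets, and 732 to 3824 when 1 array was left out, highest without control replicate 1. After median centring the median over all genes was 0.085, against -0.04 in the main analysis. With 2 arrays a group and no detection calls, dim genes such as Krt6b have no tested level.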
